A study of Mus musculus with 6 samples.

Results

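ETS transcription factors share a DNA-binding domain that recognises a short element built around GGAA, and they differ in the tissues they act in and in the signals that control them. Ehf and Elf3 belong to the epithelium-specific branch, Ets1 and Ets2 and the PEA3 group (Etv1, Etv4 and Etv5) receive input from the RAS and ERK kinase cascade, Elk3 binds DNA together with SRF, and Fli1 is best known from endothelial cells and blood. Elf1 is a broadly expressed member also known from lymphoid cells. In embryonic stem cells, Etv4 and Etv5 are known as genes that follow FGF and ERK signalling.

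The 10 genes described here (Ehf, Elf1, Elf3, Elk3, Ets1, Ets2, Etv1, Etv4, Etv5 and Fli1) were taken by symbol from a deposited table of 17912 mouse genes, in which all 10 are present. They were chosen with their difference between the study's groups already known, so that difference is given for them as a description and is not tested. Poly(A)-selected RNA was sequenced from 3 control libraries of genotype WT, numbered 1 to 3, and from 3 libraries of genotype EXOSC2_KD, titled shEXOSC2 and numbered as clones 5, 6 and 7, all labelled as mouse embryonic stem cells. Exosc2 belongs to the RNA exosome, which trims and destroys RNA from the 3′ end, and a short hairpin RNA (sh) lowers a messenger by RNA interference. The labels used here give neither the promoter of the hairpin nor its sequence, do not say whether the controls carry a control hairpin, and do not say that libraries of a group came from separate cultures, so the spread between libraries may be technical. How the clones were picked is not given either.

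The libraries held 21107761 to 26494985 reads assigned to genes. Values below are read counts scaled by the authors for library depth, called scaled counts. Exosc2 itself had scaled counts of 2457, 2473 and 1954 in controls 1 to 3 and of 1138, 997 and 981 in clones 5 to 7, which is 45.3% of the control mean. Control 3 stood farthest from the other controls, with a median absolute difference of 0.298 on the log2 scale against 0.207 for control 1 and 0.273 for control 2. The label of the cell type was checked with 10 markers of pluripotent cells. All 10 were well expressed in the controls. In the clones, 9 of them were lower (limma), among them Nanog at a mean of 9698 against 0.674 and Sox2 at 11834 against 2805, and Zfp42 and Utf1 had no read, while Pou5f1 was higher at 91114 against 21045. The clones therefore differ from the controls in the markers that define the labelled cell type, and the part this has in the values below was not tested. Over the whole table, 11158 of 15179 tested genes (73.5%) passed an adjusted p of 0.05 in limma, 35.2% higher and 38.3% lower in the clones, and the median absolute difference was 0.96 on the log2 scale. The groups did not overlap for 11728 of the tested genes (77.3%), so a lack of overlap is common in this table.

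RefSeq promoter sequence was at hand for 6 of the 10 genes (Elf1, Elf3, Elk3, Ets2, Etv1 and Etv5), with 9 start sites between them. The stretches upstream of Elf3 and Elk3 are printed because these are, among those 6 genes, the largest difference downward and upward. Each is given 5′ to 3′ on the gene's own strand, in the build GRCm38.p6 (mm10), and leaves out annotated exons. Capitals mark the ETS core GGAA, or TTCC where the core lies on the other strand.

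Elf3, chr1:135258569-135258722, minus strand: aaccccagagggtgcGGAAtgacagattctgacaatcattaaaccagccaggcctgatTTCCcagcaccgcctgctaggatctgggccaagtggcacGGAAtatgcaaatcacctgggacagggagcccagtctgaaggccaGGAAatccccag

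Elk3, chr10:93311160-93311409, minus strand: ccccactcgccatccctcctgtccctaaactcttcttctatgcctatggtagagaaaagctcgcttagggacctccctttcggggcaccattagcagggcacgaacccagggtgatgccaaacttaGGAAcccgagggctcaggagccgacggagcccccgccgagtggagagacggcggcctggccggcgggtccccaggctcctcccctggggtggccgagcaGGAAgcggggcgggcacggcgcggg

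The Elf3 stretch of 154 bases holds 4 cores and the Elk3 stretch of 250 bases holds 2. Cores this short are common. Of 32851 RefSeq promoters, 82.5% hold at least 1 core in a window of 154 bases, with a median of 2, and 93.4% in a window of 250 bases, with a median of 3. The longer element CCGGAAGT, searched on both strands and overlapping the core, was in 0 of the 9 member promoters of 300 bases and in 3.89% of all promoters, which says only that these letters are not in these windows. The Elf3 promoter had a ratio of observed to expected CpG of 0.46, near the 0.38 median of all promoters. Elk3 had 0.82, Ets2 0.79, and the upstream starts of Etv5 and Elf1 0.94 and 1.08. The downstream starts of Etv5 and Elf1 had 0.73 and 0.20, and the starts of Etv1 had 0.69 and 0.21. Elf3 was therefore not the lowest, and the ratio did not separate it from the genes that were higher in the clones.

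Among the epithelium-specific factors, Ehf had the largest rise of the whole table. Ehf (ENSMUSG00000012350.15, chr2:103263433-103303278, minus strand) encodes a factor known from glandular and stratified epithelia. Its scaled counts were 1.89, 2.16 and 1.004 in controls 1 to 3 and 17483, 17446 and 16062 in clones 5 to 7. The controls held 5 reads of Ehf in all and the clones 51965, so the gene was nearly absent from the first group and abundant in the second, with no overlap. The ratio of the means was 10080, and counting error of the few control reads alone gives it an interval of 4325 to 31082. On the log2(scaled count + 1) scale the difference was 12.65 ± 0.21 (SE, n = 3 and 3), beside the largest fall of the table, -13.10 for the pluripotency gene Tdgf1.

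Elf3 (chr1:135253575-135258568, minus strand), the other epithelium-specific factor among the 10, went the opposite way. It had scaled counts of 3685, 4647 and 4663 in the controls and of 490, 589 and 492 in the clones. Every clone was far below every control. The mean went from 4332 ± 560 (SD, n = 3) to 524 ± 56.4, a difference of -3.04 ± 0.14 on the log2 scale. Elf3 lies on chromosome 1, where the median tested gene was also lower in the clones, by -0.60, and with each library centred by chromosome its difference was -2.46.

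Elk3 (chr10:93247414-93311135, minus strand), a ternary complex factor that partners SRF and acts mainly as a repressor, had scaled counts of 532, 465 and 497 in the controls and 3479, 4205 and 3657 in the clones. Controls were alike and all clones were several-fold above them. The difference was 2.92 ± 0.12 on the log2 scale, from a mean of 498 ± 33.4 to 3780 ± 379 (SD, n = 3).

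Ets1 (chr9:32636221-32757820, plus strand), an activator phosphorylated by ERK and known from lymphocytes and invasive cells, had 202, 180 and 352 in the controls and 1569, 1473 and 1241 in the clones. Control 3 was the highest control, and still well below the lowest clone. The difference was 2.60 ± 0.24 on the log2 scale and 2.89 without control 3. Its close relative Ets2 (chr16:95702075-95721051, plus strand), which carries the same kind of ERK phosphorylation site, had 980, 896 and 1117 in the controls and 901, 810 and 970 in the clones. The Ets2 groups overlapped and the difference was -0.16 ± 0.13. Whether the difference for Ets1 exceeds that for Ets2 was not tested.

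Elf1 (chr14:79481194-79582494, plus strand) had 838, 665 and 991 in the controls and 2058, 1994 and 2155 in the clones, without overlap. The difference was 1.33 ± 0.15 on the log2 scale. The median gene of chromosome 14 was lower in the clones by -0.57, and with chromosome centring the value for Elf1 was 1.91.

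The genes of the PEA3 group had unlike values. Etv5 (chr16:22381309-22439719, minus strand) had 3892, 3760 and 2266 in the controls and 8074, 8804 and 8087 in the clones. All clones lay above all controls, and control 3 was the low control. The difference was 1.37 ± 0.19 on the log2 scale and 1.12 without control 3. Etv1 (chr12:38779380-38870484, plus strand) was much scarcer, at 228, 140 and 143 in the controls and 329, 354 and 288 in the clones. Its groups did not overlap, although control 1 came near clone 7, and the difference was 0.95 ± 0.22. Etv4 (chr11:101769742-101785371, minus strand) had 2269, 2452 and 1914 in the controls and 1929, 2082 and 1851 in the clones. The Etv4 groups overlapped, with a difference of -0.17 ± 0.12 that became -0.27 without control 3.

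Fli1 (chr9:32422204-32542861, minus strand), the endothelial and megakaryocytic member, was barely expressed in either group. It had 0.947, 4.32 and 4.02 in the controls and 7.96, 5.14 and 3.69 in the clones, from 9 and 17 reads. These few reads overlap between groups, and the gene fell under the minimum mean of 10 used for the tests.

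Of the 9 members above that minimum, 6 were past the threshold upward (Ehf, Elk3, Ets1, Etv5, Elf1 and Etv1), 1 downward (Elf3) and 2 not (Etv4 and Ets2). That is 66.7% upward and 11.1% downward, beside 35.2% and 38.3% of all tested genes. The median of the 9 differences was 1.33 on the log2 scale, beside -0.07 over all tested genes. The groups did not overlap for 7 of the 9, near the 77.3% of all tested genes. Because the genes were chosen on this contrast, nothing is read from those counts or that median. Without control 3, Etv4 also passed downward.

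**Figure D1:**
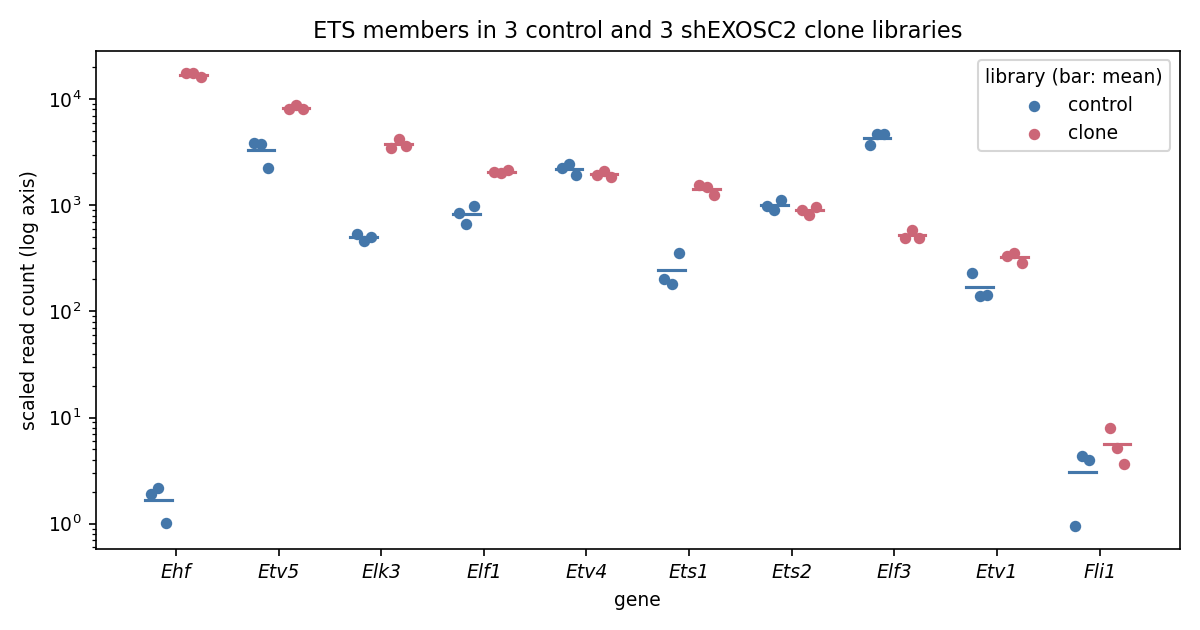
Scaled read counts (log axis) of the 10 ETS genes in each of 3 control (blue) and 3 clone (red) libraries, with bars at group means. Ehf rises from about 2 to 16062 and above, Elf3 is the gene with controls above clones, and Etv4, Ets2 and Fli1 have overlapping groups.

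The rest of the family shows what the choice of those 10 left out. Of 17 further mouse ETS genes looked for, 14 were matched (Erg, Etv3l and Fev are not analysed here) and 10 were abundant enough to test. Of these 10, 4 rose (40%), 3 fell (30%) and 3 stayed under the threshold, near the 35.2% and 38.3% of all tested genes. The median log2 difference of the 10 was 0.00, so as a set they were spread to both sides. Elf4, a relative of Elf1 known from lymphocytes, had the largest rise, from scaled counts of 344, 288 and 649 to 3203, 3264 and 2729. Its difference was 2.93 ± 0.27 on the log2 scale (limma, adjusted p = 1.3e-05), the same order as Elk3 and Ets1. The repressor Etv3 rose by 0.97 ± 0.12 (limma, adjusted p = 1.07e-04) and the SRF partner Elk4 by 0.90 ± 0.16 (limma, adjusted p = 0.00102). Etv6, a repressor needed in blood formation, rose by 0.41 ± 0.15 (limma, adjusted p = 0.0399), a call that was lost in 9 of 16 alternative settings.

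Gabpa, the DNA-binding subunit of GABP and a regulator of housekeeping and mitochondrial genes, fell from 3774, 3065 and 3956 to 2360, 2351 and 2206. The difference was -0.63 ± 0.12 on the log2 scale (limma, adjusted p = 0.00115). Spib, a lymphoid member of the SPI group, had 143 control reads and 1 clone read, so the controls were 145 times as high, with 26.4 to 5815 allowed by counting error (limma, adjusted p = 2.6e-06). Etv2, which starts the endothelial and blood lineages in the embryo, had 76 control reads and 3 clone reads, so the controls were 25.6 times as high, with 9.06 to 128 allowed (limma, adjusted p = 2.1e-04). Both were scarce in the controls as well. Spi1 (PU.1) and Spic, under the test minimum, had 15 and 25 control reads and none in the clones, so they were at least 1.72-fold and 2.81-fold lower against a floor of 3 reads per library. Spdef, known from secretory epithelia, had 29 control reads and 1 clone read.

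Elf2 at -0.02 ± 0.11, the ERK-controlled repressor Erf at 0.03 ± 0.17 and Elk1 at -0.11 ± 0.11 on the log2 scale did not pass (limma, adjusted p = 0.882, 0.887 and 0.400). Among the ternary complex factors, then, Elk3 and Elk4 were higher in the clones and Elk1 had no detectable difference. Whether these differences differ between the 3 genes was not tested. Over the whole family of 24 genes in the table, 19 were tested, 10 were higher, 4 lower and 5 not past the threshold. That is 52.6% upward and 21.1% downward, beside 35.2% and 38.3% of all tested genes. The family includes the members chosen on this contrast, so nothing is read from that count.

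**Figure D2:**
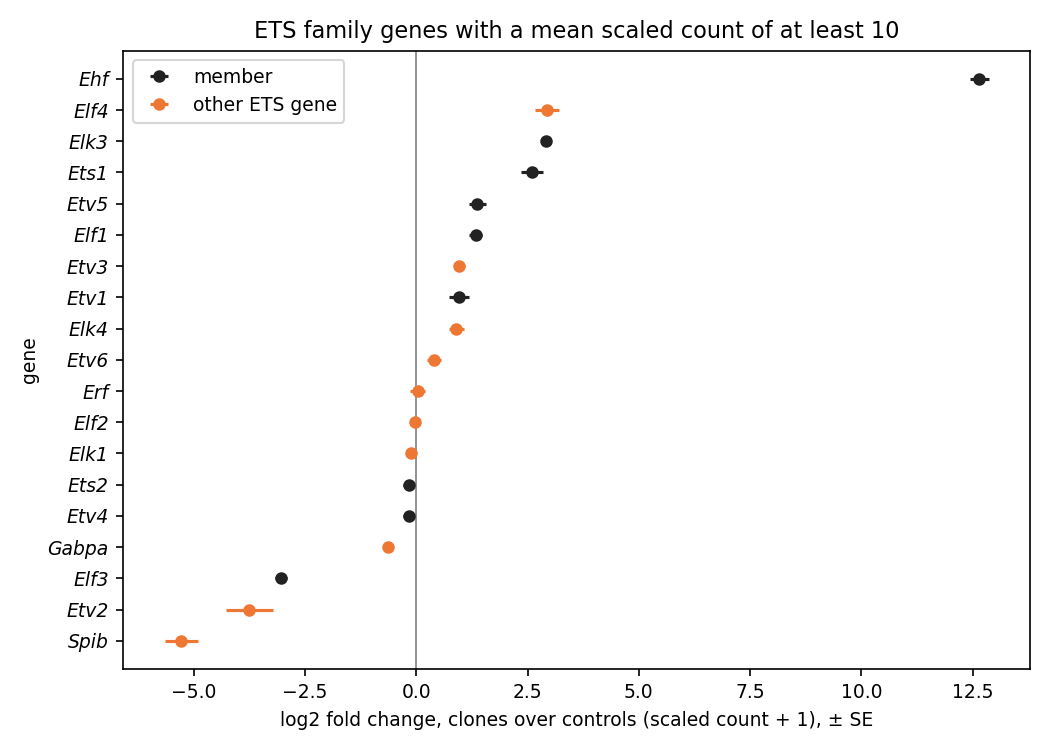
Log2 fold change of clones over controls (scaled count + 1) for the 19 tested ETS genes, with bars of 1 SE, black for the chosen genes and orange for the rest of the family. Ehf stands alone at 12.65, a group from Elf4 to Etv6 lies between 2.93 and 0.41, and Elf3, Etv2 and Spib are at -3.04 or below.

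Levels of different genes were compared as scaled counts per kb of exon. In the controls, Elf3 led the family at 1954 ± 253 per kb (SD, n = 3), and its lowest library, 1662, was above the highest of any other ETS gene. Etv5 at 806 ± 220, Etv4 at 713 ± 88.02, Gabpa at 633 ± 82.8 and Erf at 515 ± 98.5 followed, and each overlapped its neighbour in that order. Ehf was at 0.302 ± 0.109, the lowest of the 24.

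In the clones the order was led by Ehf at 3048 ± 145 per kb, then Etv5 at 2028 ± 102, Elk3 at 831 ± 83.2 and Etv4 at 629 ± 37.8, with no overlap between these neighbours. Erf at 523 ± 79.1 and Elf4 at 499 ± 47.7 overlapped each other. Gabpa at 405 ± 15.2 and Elf1 at 307 ± 12.0 came next, and Elf3, the control leader, was 9th at 236 ± 25.4. With the longest transcript as the length, Elf1 (489 ± 19.1) came before Gabpa (462 ± 17.3) and Elf3 was 10th in the clones, and Etv4 (923 ± 114) came before Etv5 (832 ± 227) in the controls.

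The summed level of the family was 5777 ± 223 per kb in the controls and 9589 ± 377 in the clones, 1.66 times as high. Without Ehf the sums were 5777 ± 223 and 6541 ± 291, 1.13 times as high, so most of the added ETS messenger was Ehf. As a share of the family sum, Elf3 had 33.8% ± 3.74 in the controls and 2.46% ± 0.172 in the clones, and Ehf had 0.0052% ± 0.0018 and 31.8% ± 1.07. The epithelium-specific genes Ehf, Elf3 and Elf5 together made up 33.8% ± 3.77 of the control family level and 34.3% ± 0.98 of the clone level, a sum formed after these values were seen. Their summed level was 1956 ± 254 per kb in the controls and 3285 ± 158 in the clones, 1.68 times as high. The shares depend on the length used. By longest transcript, Elf3 had 31.0% in the controls, and Ehf had 33.3% and Elf3 2.19% in the clones. Elf5 added little, with scaled counts of 0.947, 2.16 and 23.1 in the controls and 3.98, 2.05 and 5.54 in the clones. Etv5 had 13.9% ± 3.77 and 21.1% ± 0.376, Etv4 12.3% ± 1.29 and 6.56% ± 0.136, and Elk3 1.90% ± 0.196 and 8.65% ± 0.593. A share falls when another gene rises, which is the case for Etv4, whose own level overlapped between groups. In bulk RNA, a change in the number of cells that express a gene and a change in the RNA per cell cannot be told apart.

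**Figure D3:**
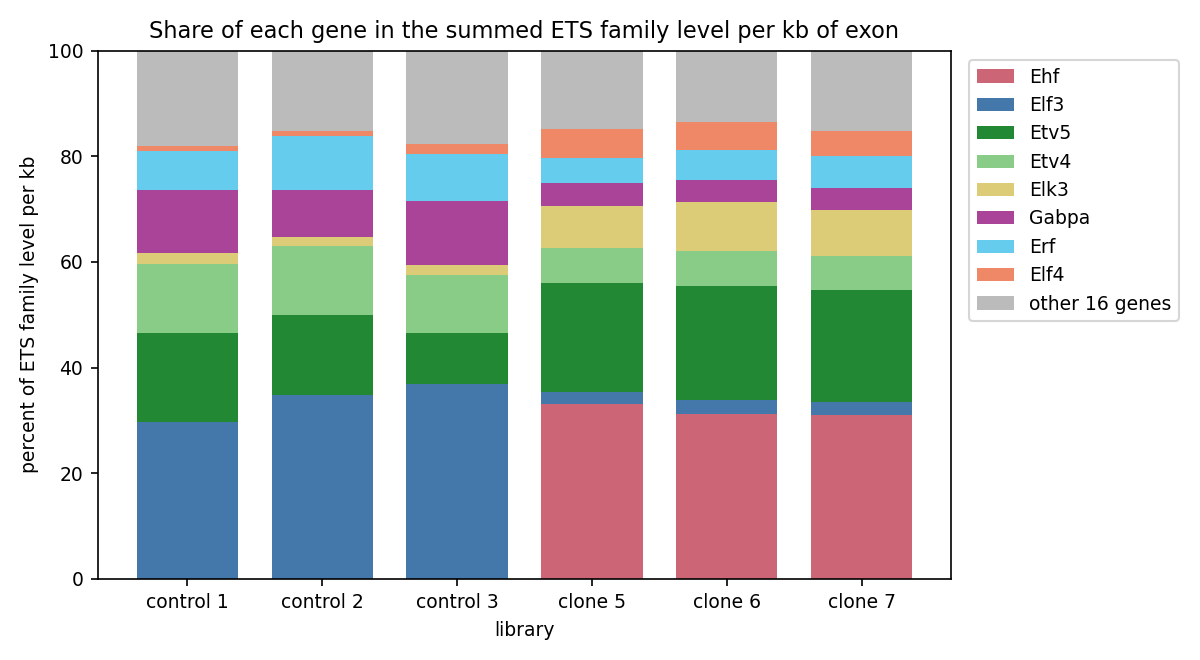
Share of each ETS gene in the summed family level per kb of exon (percent), 1 bar per library, with the 8 largest genes in colour and the other 16 in grey. Elf3 takes 29.6% to 36.9% of the 3 control bars and Ehf 31.1% to 33.0% of the 3 clone bars, where Elk3 and Elf4 also widen.

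Spread between libraries is a measure that the choice of genes did not use. The SD of Etv5 over the 3 controls was 0.44 on the log2 scale, against a median of 0.18 for tested genes of like mean level, and that of Ets1 was 0.51 against 0.27. Among the other ETS genes, Elf4 had 0.61 against 0.24. These came from control 3, in which Etv5 was 0.76 below and Ets1 and Elf4 were 0.88 and 1.04 above the mean of the other controls. The control SD of Elk3 was below that of its level, at 0.10 against 0.23. In the clones, Etv5 and Ehf both had an SD of 0.07, close to the medians of 0.07 and 0.08 for genes of their level, while Ets1 had 0.18 against 0.09 and Elk3 0.14 against 0.08.

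Genes known as feedback readouts of ERK signalling were mixed in control 3. Relative to the mean of controls 1 and 2 on the log2 scale, Spry4 was at -1.27, Dusp6 at -0.70, Spry1 at -0.59, Spry2 at -0.53 and Dusp7 at -0.33. The other 6 of the 11 were nearer to 0, with Spred1 at -0.16, Spred2 at -0.12, Dusp5 at -0.09, Il17rd at 0.02, Dusp4 at 0.06 and Spred3 at 0.17. In the PEA3 group, Etv4 was at -0.30, at the 22.1 percentile of all tested genes, and for Etv1 control 3 was level with control 2 and control 1 was the high one. Markers of other cell types went both ways in control 3, and some were high. Scaled counts in controls 1 to 3 were 71.0, 100.4 and 476 for the trophoblast marker Hand1, 5.68, 3.24 and 138 for the endothelial Cdh5, 9.47, 8.64 and 205 for the macrophage Csf1r, 5.68, 9.72 and 179 for Krt14 and 18.9, 25.9 and 95.4 for Gata3. Others of the same lists were lowest in control 3. In controls 1 to 3, the trophoblast Eomes had 456, 441 and 313 and Ascl2 118, 154 and 88.4. The endothelial Tek had 93.8, 67.0 and 52.2. The part of any of these markers in the ETS values of control 3 was not tested. This is 1 library, so the values carry no replicate error.

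Position on the chromosome adds a comparison with flanking genes. These were taken only from tested genes, those that reached the minimum mean of 10. The tested genes flanking Ehf on chromosome 2 were Apip, 170.8 kb away, and Cat (catalase), 150.6 kb away. Apip had a difference of 0.02 ± 0.14 (limma, adjusted p = 0.917) and Cat of 0.03 ± 0.12 (limma, adjusted p = 0.796). Cat was abundant throughout, with scaled counts of 4273, 4120 and 3383 in the controls and 3774, 4143 and 4091 in the clones. Elf5, the ETS gene 108.4 kb from Ehf, stayed at a few reads in 5 of the 6 libraries, with 23.1 in control 3. Ehf had the largest rise of the whole table, so no neighbour could equal it. The values show only that Apip and Cat had no detectable difference.

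Fli1 and Ets1 lie 93.4 kb apart on chromosome 9, and their levels were far apart, with Ets1 at 1428 ± 169 in the clones while Fli1 stayed in single digits in every library. The tested gene beyond Fli1, Arhgap32, fell by 0.57 ± 0.14 on the log2 scale (limma, adjusted p = 0.00438). The next tested gene beyond Ets1, the predicted gene Gm10698, lies 970.4 kb away and rose by 1.27 ± 0.26 (limma, adjusted p = 0.00217).

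**Figure D4:**
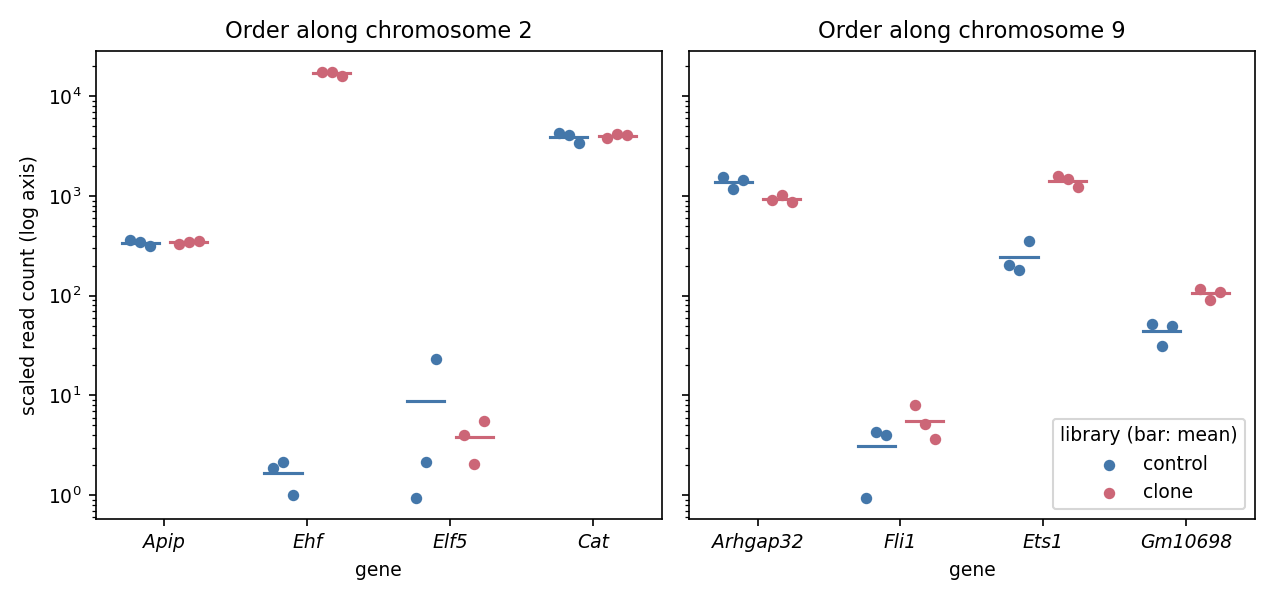
Scaled read counts (log axis) of Ehf, Elf5 and the tested genes flanking them on chromosome 2 (left), and of Fli1, Ets1 and theirs on chromosome 9 (right), in 3 control (blue) and 3 clone (red) libraries with bars at group means. The groups overlap for Apip and Cat and are farthest apart for Ehf, and Fli1 stays low beside Ets1.

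Genes with the pattern most like that of a member were found by Euclidean distance over the 6 libraries, on log2 values with each gene's mean subtracted, among all tested genes. For Ehf they were Srgn (serglycin, distance 0.77), Krt6a (a keratin of activated keratinocytes, 1.21) and Tph1 (which starts peripheral serotonin synthesis, 1.35). Srgn had scaled counts of 7.58, 5.40 and 3.01 in the controls and 26379, 29690 and 26671 in the clones. Krt6a had no control read and 11270 clone reads. For Elf3 they were Dock6 (0.20), Tead2, a partner of YAP (0.23), and Fam110b (0.27), and for Ets1 Amotl1, a junction protein (0.19), Ttc39c (0.24) and Arap2 (0.25). For Etv5 the nearest gene was Irf1, an interferon-regulated factor (0.097), with 1919, 1742 and 1105 in the controls and 3717, 4166 and 3727 in the clones. Dapp1 (0.13) and the ERK phosphatase Dusp6 (0.20) followed.

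The lists that follow were chosen with earlier results of these data known. Their counts are given as a description, and nothing is read from the lean of a list. The ERK cascade, which phosphorylates several ETS proteins, changed in both directions. Its 19 tested genes comprised 8 that rose, 4 that fell and 7 that were not past the threshold. That is 42.1% upward and 21.1% downward, beside 35.2% and 38.3% of all tested genes. The median of the 19 was 0.20 beside -0.07 over all genes. The kinase gene Map2k1 (MEK1), at 4532 ± 223 and 4594 ± 189, did not pass (limma, adjusted p = 0.855). Rps6ka3, which encodes an ERK-activated ribosomal S6 kinase, rose from 1220 ± 260 to 9135 ± 552, by 2.92 ± 0.16 (limma, adjusted p = 5.7e-07). Gab1, a docking protein upstream of RAS, fell from 9026 ± 1269 to 921 ± 35.8, a difference of -3.28 ± 0.12 (limma, adjusted p = 9.2e-08).

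Most feedback inhibitors of that cascade, many of which are known as its transcriptional readouts, were higher in the clones. Of 11 tested genes, 8 rose, 2 fell and 1 (Spry2) was not past the threshold, which is 72.7% upward beside 35.2% of all genes, and the median was 0.87. Spred1 went from 2292 ± 362 to 4500 ± 512, Spred2 from 1831 ± 161 to 4777 ± 218 and the phosphatase Dusp4 from 1474 ± 171 to 3961 ± 430 (limma, adjusted p = 2.0e-04, 3.7e-06 and 1.1e-05). Dusp6 rose by 1.29 ± 0.20 (limma, adjusted p = 3.4e-04). The 2 that fell did so strongly: Spry1 went from 548 ± 126 to 11.6 ± 3.70 and Il17rd from 2700 ± 224 to 144 ± 34.9. Spry2 did not pass, at -0.09 ± 0.16 (limma, adjusted p = 0.640), and Spry4, at 0.87 ± 0.31 (limma, adjusted p = 0.0326), lost its call in 6 alternative settings. Dusp6, Spry1, Spry4 and Il17rd are named here after their values were seen.

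Among 14 partners and regulators of ETS proteins, 6 rose, 4 fell and 4 were not past the threshold (median 0.16). The shares of 42.9% upward and 28.6% downward lie near the 35.2% and 38.3% of all tested genes. The 4 most abundant were the coactivator Ep300, Cbfb and Gabpb2, which did not pass (limma, adjusted p = 0.413, 0.133 and 0.289), and Daxx, an Ets1-binding repressor, which fell by 0.63 ± 0.14 (limma, adjusted p = 0.00343). Cbfb passed with chromosome centring and without control 1, and Gabpb2 without control 2. RUNX proteins bind DNA jointly with Ets1, and their genes, named after their values were seen, moved far. Runx1 had 81.4, 62.6 and 69.3 in the controls and 2554, 2691 and 2410 in the clones. It rose by 5.15 ± 0.15 (limma, adjusted p = 4.4e-08). Runx2 went from a mean of 44.8 ± 20.3 to 2366 ± 306, and Runx3 from 60.4 ± 1.98 down to 14.2 ± 4.64. Gabpb1, the partner subunit of Gabpa, also named after its value was seen, fell by 1.12 ± 0.12 (limma, adjusted p = 3.3e-05), the same direction as Gabpa.

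Regulators of the epithelial state mostly fell. Of 12 tested genes, 8 fell, 3 rose and 1 was not past the threshold, which is 66.7% downward beside 38.3% of all genes, and the median was -1.84. Tfap2c went from 3356 ± 227 to 882 ± 129, Klf5 from 2474 ± 38.0 to 511 ± 86.9 and the splicing regulator Esrp1 from 2389 ± 216 to 505 ± 96.0 (limma, adjusted p = 1.9e-06, 1.0e-06 and 2.3e-06). The 3 that rose were Tfap2a, Grhl1 and Zfp750, all known from the epidermis and named here after their values were seen. Of the structural genes of epithelia, 9 of 24 were higher, 12 lower and 3 not past the threshold (median -0.86). That is 37.5% upward, near the 35.2% of all tested genes, and 50% downward beside 38.3%. E-cadherin (Cdh1) went from 15794 ± 3163 to 982 ± 257 (limma, adjusted p = 3.8e-07), while the keratin Krt19 went from 1092 ± 706 to 11093 ± 1791, the desmosomal Dsp from 1562 ± 797 to 9298 ± 569 and Krt8 from 2302 ± 1520 to 7526 ± 1315 (limma, adjusted p = 4.2e-05, 3.2e-05 and 0.00252). Control 3 was the highest control for Krt8, Krt19 and Dsp. Other keratins of the list, named after their values were seen, did not rise. Krt18 fell from 2967 ± 2257 to 311 ± 44.3 (limma, adjusted p = 2.5e-04). Krt7 did not pass (limma, adjusted p = 0.185).

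Matrix and invasion genes that are described as ETS targets were mostly higher. Among 10 tested, 7 rose (70%), 2 fell (20%) and Met was not past the threshold (median 1.93), beside 35.2% and 38.3% of all tested genes. Timp1, a metalloprotease inhibitor, went from 1344 ± 62.6 to 10886 ± 749, Tgfbr2, a TGF-beta receptor, from 199 ± 61.5 to 6505 ± 309 and Plaur, the urokinase receptor, from 315 ± 113 to 4964 ± 751 (limma, adjusted p = 6.6e-08, 1.4e-07 and 1.2e-06). The most abundant, Spp1 (osteopontin), fell by 0.81 ± 0.11 (limma, adjusted p = 2.0e-04), and Mmp9, named after its value was seen, also fell. Endothelial and blood genes, the field of Fli1, Etv2 and the SPI group, gave 3 higher, 8 lower and 4 not past the threshold of 15 tested (median -1.13), or 20% and 53.3% beside 35.2% and 38.3% of all tested genes. Pecam1 went from 1875 ± 177 to 11.1 ± 2.20 (limma, adjusted p = 3.8e-08), whereas Eng rose from 433 ± 80.9 to 3969 ± 436 and Gata2 from 156 ± 92.9 to 1179 ± 158 (limma, adjusted p = 3.3e-07 and 5.6e-05). Flt1 did not pass with all libraries (limma, adjusted p = 0.643), and without control 3, its highest control, 5 genes of this list rose.

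**Figure D5:**
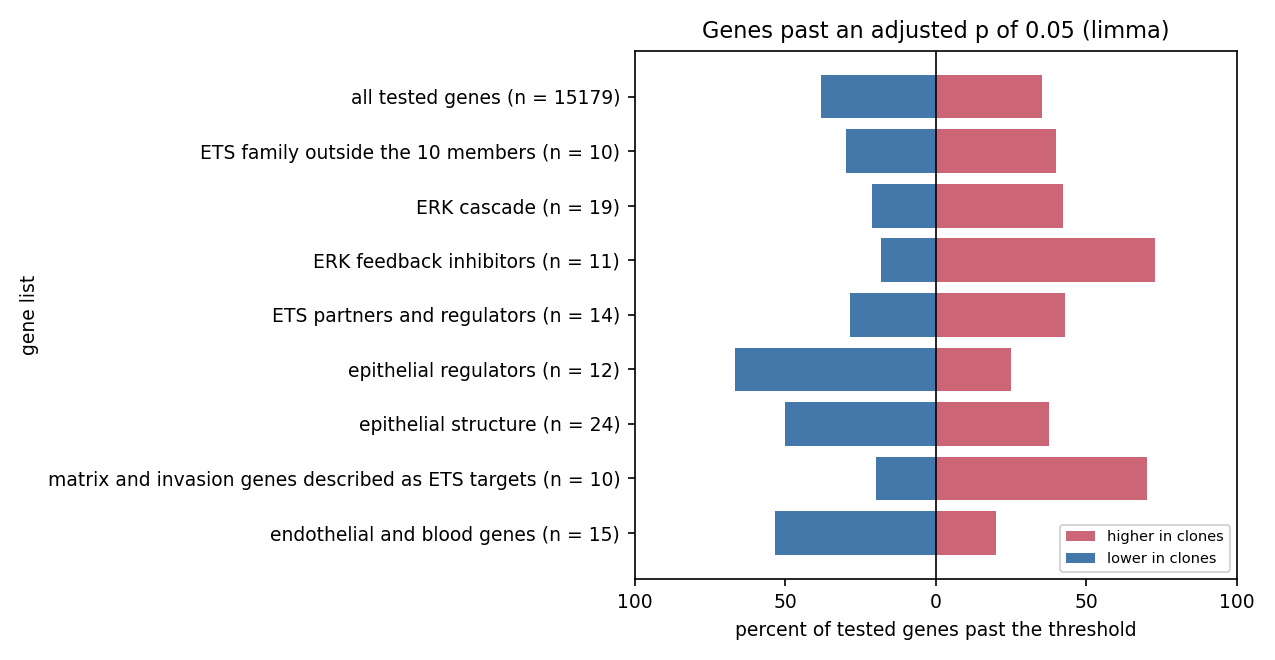
Percent of tested genes past an adjusted p of 0.05 (limma), to the left when lower and to the right when higher in the clones, for all tested genes and for 8 lists with their number of tested genes. Beside all tested genes (35.2% and 38.3%), the bars reach 72.7% to the right for ERK feedback inhibitors, and to the left 66.7% for epithelial regulators, 53.3% for endothelial and blood genes and 50% for epithelial structure. The right-hand bars of the ERK cascade, the partners and the other ETS genes lie between 40.0% and 42.9%. The lists were chosen with earlier results of these data known.

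Markers of other cell types were measured beside these groups, as sums of scaled counts. The counts of markers past the threshold stand beside 35.2% higher and 38.3% lower among all tested genes. Keratinocyte markers, which bear on Ehf, summed to 2579 to 3857 in the controls and 17869 to 21577 in the clones, with 5 of 6 tested genes higher. Perp, at a mean of 1202 and 13051, and Krt6a, with no control read and 3657 in the clones, carried that sum. Krt14, Krt5 and Dsg3 reached clone means of 296, 53.7 and 25.9, Sfn did not pass (limma, adjusted p = 0.716), and Trp63 is not analysed here. Fibroblast or feeder markers, which bear on the matrix genes, summed to 5519 to 6565 and 22176 to 38243, with 10 of 11 tested genes higher. Tuft cell markers, of which 7 of 12 were matched, summed to 721 to 964 and 17331 to 19339, with nearly all of the clone sum from Avil. Of 6 tested tuft genes 2 were higher and 3 lower, and the tuft factor Pou2f3 went from 211 ± 18.7 to 15.4 ± 3.57. Immune markers, which bear on Elf1, Elf4 and Ets1, stayed low at 57.2 to 257 and 45.2 to 131, with neither of 2 tested genes past the threshold and Cd3e at 0 in the clones. Endothelial markers summed to 2258 to 2796 and 425 to 494, trophoblast markers to 3930 to 4467 and 1027 to 1283, and mast cell markers to 1677 to 2484 and 1093 to 1445. Single genes made up most of these sums. Of 5 tested endothelial genes 3 were lower, with Pecam1 making most of the fall, and Vwf (335 to 2.58) and Esam (94.7 to 8.83) falling too. Tek, the 1 that was higher, rose from a mean of 71.0 to 390 and made up most of the clone sum. Of 6 tested trophoblast genes 5 were lower, with Tfap2c making most of the fall and Cdx2 going from a mean of 117 to no read. Gata3 was the 1 that rose, from 46.8 to 125. Only 3 of 9 mast cell markers were matched, and among them Kit fell from 1803 to 102 and Gata2 rose from 156 to 1179. What part changes in cell type have in the ETS values was not tested.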

How the data were processed

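Libraries were made by the submitters from poly(A)-selected RNA (input 500 ng, TruSeq Stranded mRNA, PCR of 8 cycles, per the labels' protocols). The deposited values are a signal per gene, namely read counts that the authors scaled with DESeq (version 1.22.1). The submitters' processing notes also name HTSeq 0.5.3, STAR 2.5.0a, cutadapt 1.6 and the build mm10. The strand setting of HTSeq was not given in the sources used here. Overlapping and antisense genes are therefore uncertain. In every library 100% of values were whole multiples of 1 step within 0.001 read, so whole reads were recovered. No gene had under 15 reads in sum. By Ensembl identifier, 17860 of 17912 genes matched GENCODE M21 (GRCm38), the source of positions and summed exon lengths.

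Groups came from the titles. Values were tested as log2(value + 1) with limma 3.58.1 (lmFit and trended eBayes) where their mean over the libraries reached 10. Benjamini-Hochberg adjustment ran over 15179 genes, with a threshold of 0.05. This scale understates changes of scarce genes. Where a group held 1 to 10 reads, the ratio of means has an exact 95% Poisson interval of those reads, for counting error only. It is printed for Ehf, Spib and Etv2. The script was tested on simulated data. Alternatives were pseudocounts 0.5 and 5, a minimum mean of 50, no minimum, TMM, quantile normalization, no trend, centring by chromosome (each library's chromosome median, taken against the control mean, is subtracted), DESeq2 1.42.0 and edgeR 4.0.16 (on the recovered reads), leaving out each sample, and the longest transcript as the length. Named genes were all ETS genes, Exosc2, the 4 most abundant members of each list, nearest patterns and flanking genes, of which 2 list members are not reported here. Others are markers or are said to be chosen after their values were seen. The members and lists were chosen with earlier results of these data known. Promoters are RefSeq's for GRCm38.p6. Comparisons of protein sequence were not made.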

Additional observations from a re-analysis of the deposited data

How the results depend on the processing

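No paired analysis was possible because controls are numbered 1 to 3 and clones 5 to 7, so the groups share no replicate number. Of 321 comparisons of list and family counts and levels with an alternative setting, 313 kept the call or stayed within 1.5 times the value. The number of chosen ETS genes lower in the clones, 1 in the report, was 3 with quantile normalization and 3 with chromosome centring, where Etv4 (-0.37 and -0.35) and Ets2 (-0.37 and -0.31) passed, and 1 to 2 over the leave-one-out fits. Over all 161 named genes and markers, 129 kept their call and direction in the alternatives run and 32 did not, among them Met, Mmp3, Flt1, Srf and Mkl1. Of the other ETS genes, 6 were lower without the filter and 1 with a mean of at least 50, because the set of tested genes changes, against 3. Elk1 passed with quantile normalization at -0.33, and Etv6 ranged down to 0.02 with chromosome centring. The median of the other ETS genes, 0.00, turned to -0.15 without the filter, -0.20 with quantile normalization, -0.025 with edgeR and -0.012 with DESeq2, and ran from -0.037 to 0.17 over the leave-one-out fits. Endothelial and blood genes that were lower numbered 8 in the report and 3 with a mean of at least 50, and those that were higher numbered 3 to 5 over the leave-one-out fits. The share of Ehf in the clones was 33.3% by longest transcript. The median of partners was -0.019 with quantile normalization, that of all genes 0.024 at a minimum mean of 50, and chromosome centring gave 0.49 for Spry2 and 0.16 for Rfwd2 (Cop1). Other causes of these shifts were not tested. Between 9228 and 12553 genes passed over all settings. With 5 control reads, the size of the Ehf ratio is limited by depth, and so are Fli1, Elf5, Spdef, Spi1 and Spic.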
